A study of Mus musculus with 9 samples.

Results

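The 42 autophagy and lysosome genes described here are cathepsins and other lysosomal proteins, LC3 and GABARAP proteins, cargo and mitophagy receptors, the machinery that forms the autophagosome, and the transcription factors Tfeb and Tfe3. They were taken by gene symbol from a fixed list, which was chosen with earlier results of these data known. All 42 were found among the 14300 protein-coding genes listed in both deposited tables. RNA came from the tibialis anterior, a lower-leg muscle of mostly fast fibres, of male C57BL/6J mice. Control males were set beside males whose testes had been removed by orchiectomy (ORX) and beside such males treated with the potent androgen dihydrotestosterone (ORX+DHT), with 3 libraries in each group that the labels call biological replicates. All were sampled 4 weeks after treatment. The labels give no age, DHT dose or route, and do not say whether each library comes from 1 mouse, so p-values measure the spread between libraries. The control columns are called sham in the tables and were taken as the control group, the only one without orchiectomy.

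Autophagy is the route by which a cell encloses its own material in a membrane, the autophagosome, and delivers it to the lysosome for breakdown. The Ulk kinases and the Vps34 lipid kinase complex start the membrane, the Atg conjugation enzymes attach LC3 and GABARAP proteins to it, and receptors such as Sqstm1 (p62) and Optn bind both the cargo and LC3. Cathepsins, the lysosome's proteases, then digest the content. In skeletal muscle this pathway runs beside the proteasome in the turnover of proteins and mitochondria, and its genes are known targets of FoxO factors and of Tfeb. Transcript levels do not measure autophagic flux.

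All 42 members passed the filter of a mean normalised count of at least 10 in each comparison, and each had at least 6 reads in every library. A normalised count is a gene's reads divided by the size factor of its library. The values below are on a joint scale of all 9 libraries. Its size factors were computed by median of ratios from the whole reads recovered for genes in both separately scaled tables. The ORX libraries, which both tables hold, served to check that the recovered reads were equal. Reads counted on the listed protein-coding genes came to 1340209 to 1682235 a library, which is not the full sequencing depth. The members made up 0.492% to 0.573% of all normalised counts of a library.

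Compared per kilobase of merged exon, with the mean over 9 libraries, Psap stood highest at 522. It encodes prosaposin, the precursor of activators of sphingolipid breakdown. Sqstm1 followed at 246, Map1lc3a (LC3A) at 236, Lamp1, a major protein of the lysosomal membrane, at 228 and Ctsd, an aspartic protease, at 221. Ctsb, a cysteine protease, stood at 90.8, Gaa, the enzyme that degrades glycogen in the lysosome, at 89.9 and Gabarap at 87.6. At the low end were Tfe3 at 2.09, Atg7 at 2.996 and Atg14 at 3.91 per kilobase. The conjugation genes were low as a group: the highest, Atg3, stood at 14.1, below Lamp2, the other lysosomal membrane protein on the list, at 14.7. Merged exons include those of rarely used transcripts, so a gene with a long annotated exon, such as Ctsl with 6489 bases, is understated on this scale.

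Promoter windows of RefSeq (GRCm38.p6, from 250 bases before to 50 after a start) were found for 35 of the 42 members, 42 windows in all because some genes have several starts. No window was found for Ctsb, Map1lc3a, Becn1, Atg12, Atg16l1, Bnip3l and Pik3c3, so their motif content is not known here. Of these, Ctsb and Map1lc3a are among the members called below. The E-box CACGTG, which reads the same on both strands, lay in 11 of these 42 windows (26.2%) against 7.15% of all 32851 windows. The core of the CLEAR element, TCACGTGA, the site described for Tfeb and Tfe3, contains the E-box and lay in 3 windows (7.14%) against 0.974% of all. The FoxO letters GTAAACA were found on neither strand of any member window, against 3.65% of all windows. In 42 short windows a share that low allows for few matches, so this is not read as a lack of FoxO sites. The CLEAR core was in windows of Atg3, Ctsa and Ctsd. Further E-boxes were in those of Atg14, Atg5, Atg7, Bnip3, Ctsf, Ctsl, Gaa and Lamp1. The stretches below show the 3 members with the CLEAR core, Lamp1 with 4 E-boxes close to its start, and, for contrast, Optn, a receptor gene whose window held none of these letters. Capitals mark the matches.
Ctsd: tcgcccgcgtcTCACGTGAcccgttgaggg
Atg3: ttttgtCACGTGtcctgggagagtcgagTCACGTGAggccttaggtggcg
Ctsa: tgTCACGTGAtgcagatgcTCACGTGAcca
Lamp1: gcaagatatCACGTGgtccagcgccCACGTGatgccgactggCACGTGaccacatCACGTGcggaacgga
Optn: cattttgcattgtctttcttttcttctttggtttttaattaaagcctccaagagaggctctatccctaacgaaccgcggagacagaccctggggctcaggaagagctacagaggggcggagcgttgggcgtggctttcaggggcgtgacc
The Ctsd stretch lies on the minus strand at chr7:142387908-142387937, with the CLEAR core 99 bases before the RefSeq start. The gene start in GENCODE release M21 lies 211 bases before that RefSeq start, so the core falls inside the annotated gene. Atg3 is shown at chr16:45158729-45158778 (plus strand) and Ctsa at chr2:164833758-164833787 (plus strand), around its downstream RefSeq start. Lamp1 is shown at chr8:13159091-13159160 (plus strand) and Optn at chr2:5064118-5064267 (minus strand), each up to the base before the start. Among these genes the later results differed: Ctsd and Optn rose with DHT, and Atg3, Ctsa and Lamp1 did not pass the test. A match of letters is a description of the window and not a measured binding site.

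DHT given to orchiectomised mice moved a few of these transcripts in both directions. The LC3 gene Map1lc3a rose 1.54-fold, the receptor Optn 1.42-fold and the aspartic protease Ctsd 1.35-fold over ORX. The cysteine proteases Ctsl and Ctsb fell, to levels 1.55-fold and 1.26-fold lower. The other 37 members did not pass the test. The test was limma on log2(normalised count + 1) with Benjamini-Hochberg adjustment over all genes, called at an adjusted p under 0.05. It called 5 of 42 members (11.9%), 3 higher and 2 lower, where 4.08% of all 8770 genes tested were called, 2.38% higher and 1.7% lower. An unadjusted p under 0.05 was found for 8 members (19.0%), against 14.3% of all genes. The groups did not overlap for 11 members, 5 higher and 6 lower, against 19.5% of all genes. The median log2 fold change over the members was -0.05, and over all genes 0.01.

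Orchiectomy alone gave no call among the members. In ORX against control limma called 0 of 42, against 0.0579% of all 8631 genes tested. At an unadjusted p under 0.05 there were 4 (9.52%, against 7.21% of all genes), Atg14 higher and Ctsd, Map1lc3a and Optn lower. edgeR called 0 members with 4 at that unadjusted p, and DESeq2 called 0 with 3. The groups did not overlap for 9 members, 4 higher (Ulk1, Atg14, Tfeb and Pik3c3) and 5 lower (Ctsd, Map1lc3a, Atg4d, Wipi1 and Optn), against 14.3% of all genes. The median log2 fold change was 0.06, against -0.01 over all genes. Precision was lower here: the median half-width of a member's 95% interval was 0.43 on the log2 scale, against 0.30 in ORX+DHT against ORX.

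ORX+DHT against control also gave no call among the members, 0 of 42 against 0.0349% of all 8595 genes. An unadjusted p under 0.05 was found for Ctsl (lower) and Atg4a (higher), 4.76% of the members against 6.48% of all genes. edgeR called 0 members with 2 at that unadjusted p, and DESeq2 0 with 0. The groups did not overlap for 6 members, Lamp2, Atg4a, Atg13 and Pik3c3 higher and Ctsl and Ctsb lower, against 14.0% of all genes. The median was 0.01, with 21 members above and 21 below 0. All 3 comparisons share libraries with each other, so their values for a member are not independent. The plot of fold changes by role shows the comparison that gave calls.

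**Figure D1:**
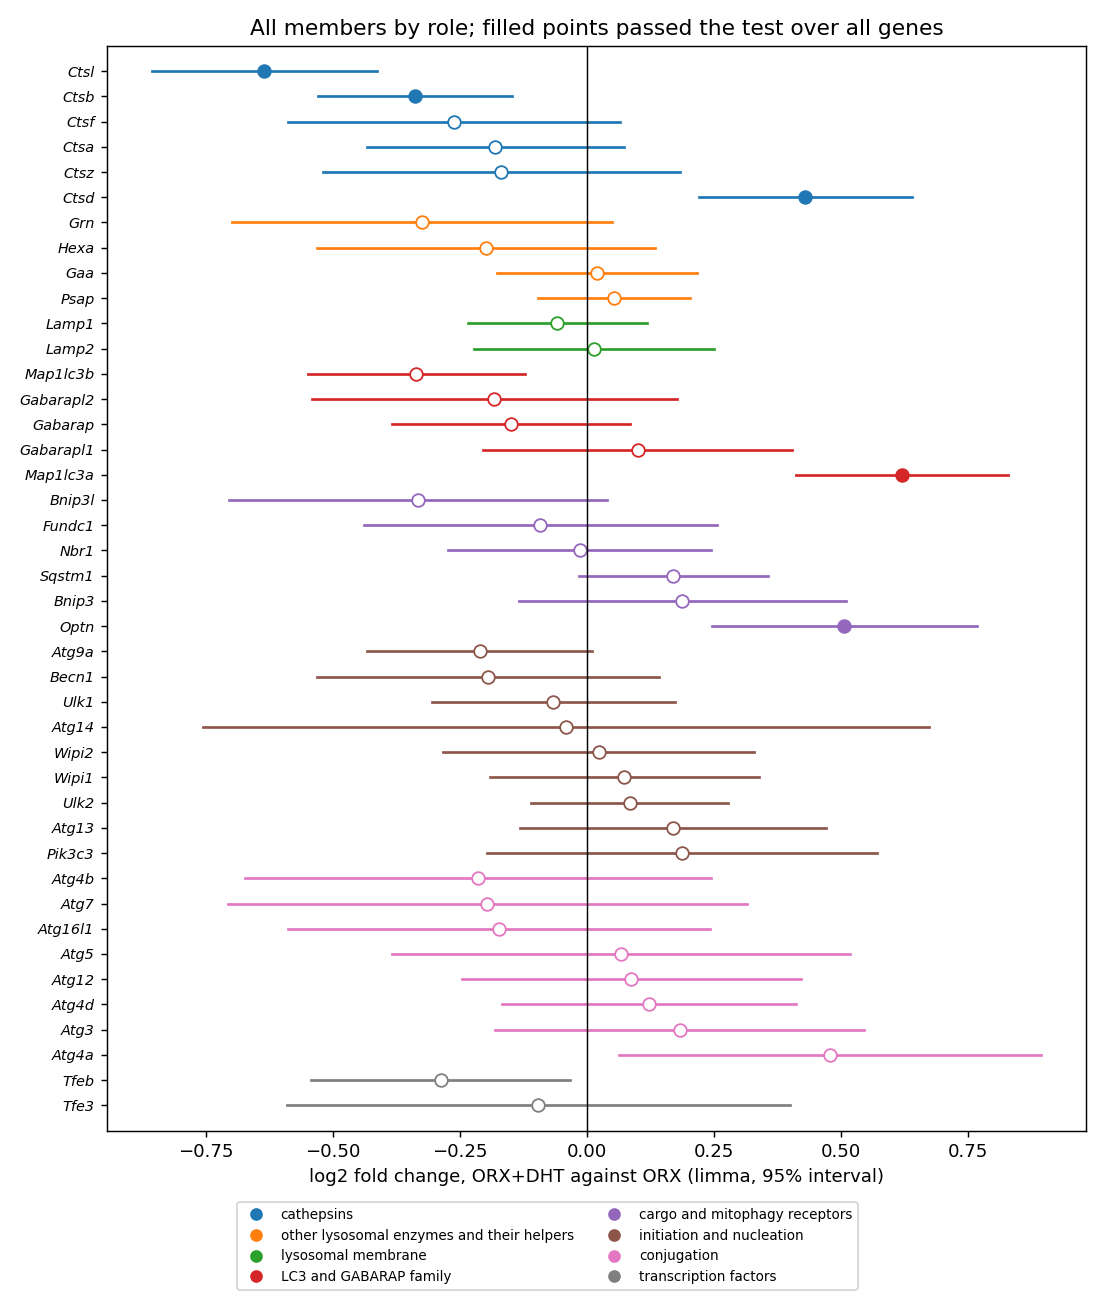
Log2 fold change of ORX+DHT against ORX (horizontal axis) for each of the 42 members, coloured by role, with limma's 95% interval as a line and filled points for called members. Ctsl and Ctsb lie to the left of 0 and Ctsd, Map1lc3a and Optn to the right, and most members of the other roles have intervals that span 0.

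The cathepsins moved apart from each other with DHT. Of 6 measured, 1 rose, 2 fell and 3 did not pass the test, with a median log2 fold change of -0.22. Ctsl (ENSMUSG00000021477, chr13:64359337-64370890, minus strand), an endoprotease of the lysosome that is long known as a transcript induced in wasting muscle, stood at 205, 147 and 161 normalised counts in control, 198, 191 and 222 in ORX and 132, 127 and 133 in ORX+DHT libraries. Every ORX+DHT library was below every other library. The group means were 171 ± 30.1, 204 ± 16.0 and 131 ± 3.51 (SD, n = 3), and the log2 fold change of ORX+DHT against ORX was -0.63 (SE 0.10, limma adjusted p 0.00105). It was 0.26 in ORX against control (adjusted p 0.75) and -0.37 in ORX+DHT against control (adjusted p 0.736). Without control replicate 1, the highest control, these were 0.40 (adjusted p 0.203) and -0.23 (adjusted p 0.532). Ctsl was the one member called in every alternative analysis of ORX+DHT against ORX.

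Ctsb (ENSMUSG00000021939, chr14:63122462-63145923, plus strand), the most abundant cysteine cathepsin on the list, stood at 617, 544 and 544 in control, 559, 620 and 631 in ORX and 429, 489 and 515 in ORX+DHT libraries. The ORX+DHT libraries lay below all others, with means of 568 ± 41.96, 603 ± 39.1 and 478 ± 44.2 (SD, n = 3). The log2 fold change against ORX was -0.34 (SE 0.09, limma adjusted p 0.0427), close to the threshold. The adjusted p was 0.179 without ORX replicate 2, 0.117 without ORX replicate 3, 0.243 without ORX+DHT replicate 1 and 0.0921 without ORX+DHT replicate 2. The log2 fold change was 0.09 in ORX against control (adjusted p 0.905) and -0.25 in ORX+DHT against control (adjusted p 0.736).

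Ctsd (ENSMUSG00000007891, chr7:142375911-142388038, minus strand) stood at 755, 510 and 475 in control, at 420, 416 and 409 in ORX and at 609, 473 and 608 in ORX+DHT libraries. The 3 ORX libraries were the lowest of the 9. Means were 580 ± 153, 415 ± 5.85 and 563 ± 78.3 (SD, n = 3), and the log2 fold change of ORX+DHT against ORX was 0.43 (SE 0.10, limma adjusted p 0.0161). The adjusted p was 0.0635 without ORX replicate 2, 0.123 without ORX+DHT replicate 1 and 0.0866 without ORX+DHT replicate 3. In ORX against control the log2 fold change was -0.45 (adjusted p 0.675), and -0.25 without control replicate 1, the highest library (adjusted p 0.35). In ORX+DHT against control it was -0.02 (adjusted p 0.98).

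The other cathepsins were at low counts. Ctsa, a serine carboxypeptidase that also protects other lysosomal enzymes, stood at 88.5 to 142 in control libraries, 99.1 to 108 in those of ORX, and 86.1 to 95.8 in those of ORX+DHT, the ORX and ORX+DHT ranges not overlapping (log2 fold change -0.18, adjusted p 0.541). Ctsf, a cysteine protease, and Ctsz, a carboxypeptidase, had log2 fold changes of -0.26 and -0.17 with overlapping groups. Summed per kilobase, the 6 cathepsins came to 546, 386 and 378 in control, 366, 376 and 379 in ORX and 403, 363 and 424 in ORX+DHT libraries, ranges that overlap between all groups. Ctsd made up 45.8% to 48.8% of that sum in ORX, 53.4% to 58.9% in control and 55.4% to 64.2% in ORX+DHT libraries, while Ctsl made up 7.83% to 9.01%, 5.78% to 6.56% and 4.85% to 5.38%. Shares of 1 sum depend on each other, and since Ctsd is the largest part, a lower Ctsd raises the shares of the rest: Ctsb made up 25.2% to 27.5% in ORX and 17.6% to 23.8% in the other libraries, and Ctsf 2.87% to 3.33% and 2.16% to 2.55%.

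Some of these counts carry uncertainty from the annotation. In GENCODE release M21, 34.4% of the exon bases of Ctsd are shared with Gm49369, a gene model on the same strand. For Ctsl 32.9% are shared with an antisense gene on the opposite strand and a processed pseudogene on the same strand. For Ctsb 12.8% are shared with Fdft1 on the opposite strand. The libraries were made with a kit that keeps the strand, but the strand setting of the counting is not given in the sources used here. Map1lc3a shares no exon bases with another gene, and Optn shares 1.95%.

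The LC3 and GABARAP proteins are the ubiquitin-like proteins fixed to the autophagosome membrane. Of 5 members, 1 rose and 4 did not pass the test, with a median log2 fold change of -0.15. Map1lc3a (ENSMUSG00000027602, chr2:155276297-155278073, plus strand) stood at 458, 254 and 242 in control, 203, 192 and 217 in ORX and 345, 303 and 295 in ORX+DHT libraries. The ORX libraries were the lowest of the 9 and did not overlap with either other group. Means were 318 ± 121, 204 ± 12.4 and 314 ± 26.5 (SD, n = 3), and the log2 fold change of ORX+DHT against ORX was 0.62 (SE 0.10, limma adjusted p 0.000711), the smallest adjusted p of the 42. That call was lost in 1 of 17 alternatives, the fit of all 9 libraries together, whose estimate of the spread includes the control libraries (adjusted p 0.223). In ORX against control the log2 fold change was -0.58 (adjusted p 0.669), and -0.28 without control replicate 1 (adjusted p 0.357). In ORX+DHT against control it was 0.04 (adjusted p 0.97), and 0.34 without control replicate 1 (adjusted p 0.231).

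Map1lc3b (LC3B, chr8:121590361-121598760, plus strand), the form usually followed as a protein marker of autophagosomes, stood at 247, 175 and 162 in control, 217, 252 and 248 in ORX and 197, 179 and 192 in ORX+DHT libraries. All ORX+DHT libraries were below all ORX libraries, opposite in sign to Map1lc3a. The log2 fold change was -0.34 (95% interval -0.55 to -0.12, unadjusted p 0.00402, limma adjusted p 0.0799), which did not pass. It passed without ORX replicate 1 (adjusted p 0.0389). Gabarap stood at 255, 134 and 153 in control, 150, 156 and 174 in ORX and 131, 154 and 148 in ORX+DHT libraries, with a log2 fold change of -0.15 against ORX (adjusted p 0.604). Gabarapl1 and Gabarapl2 had log2 fold changes of 0.10 and -0.18.

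**Figure D2:**
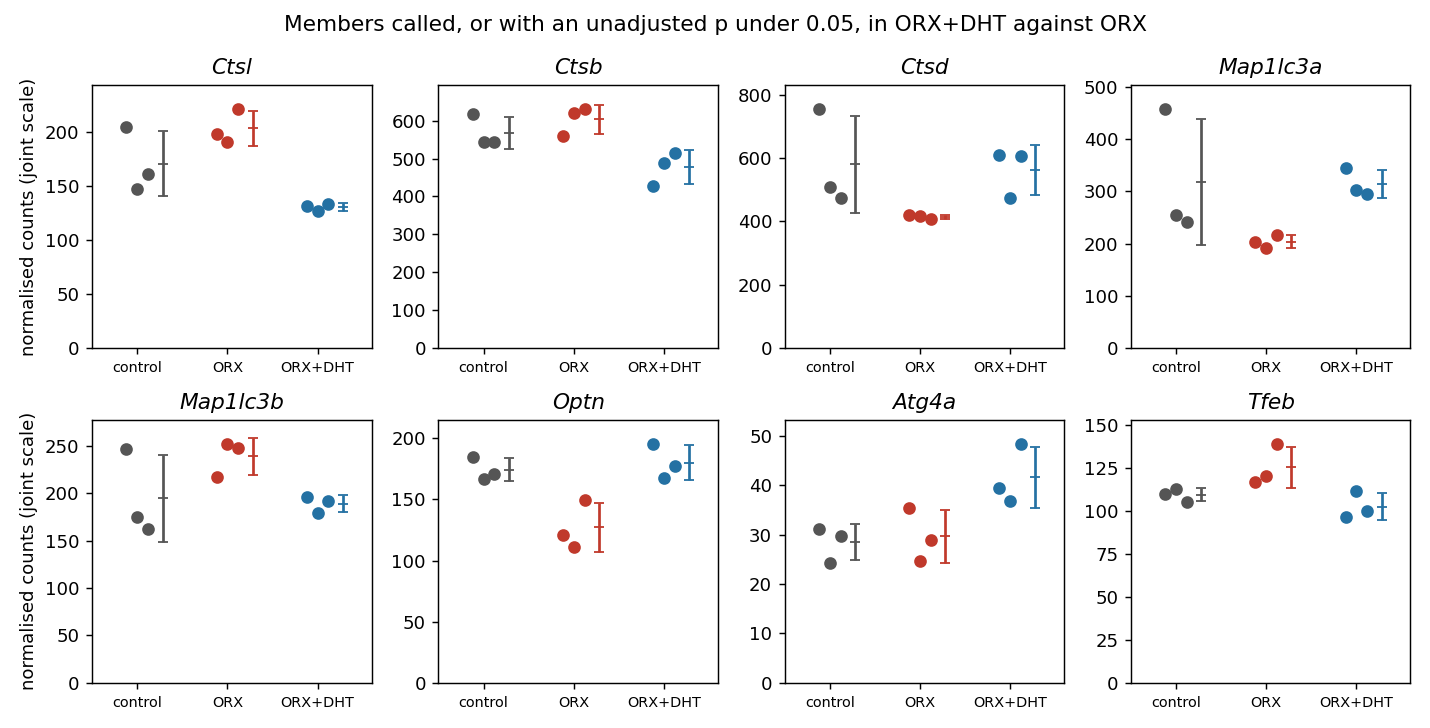
Normalised counts (joint scale of 9 libraries) of the 8 members called or with an unadjusted p under 0.05 in ORX+DHT against ORX, in control, ORX and ORX+DHT muscle, with 1 point per library and the mean ± SD (n = 3). Ctsl and Ctsb are lowest in the ORX+DHT libraries, and Ctsd, Map1lc3a and Optn are lowest in the ORX libraries.

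Ratios between members of 1 family, taken within a library, show the contrast without between-library scaling. These pairs were chosen after their values were seen and are a description with no test. The ratios are of normalised counts, not per length, so only their change between libraries can be read. Each pair sets a shorter merged exon over a longer one. Map1lc3a has 1181 bases and Map1lc3b 7517, while Ctsd has 2351, Ctsl 6489 and Ctsb 6051. Over all genes tested, exon length correlated with log2 fold change at Spearman's rho 0.25 for ORX over control and 0.30 for ORX+DHT over control. For ORX+DHT over ORX it was 0.05. A ratio within a library does not remove such a trend, and its part in these ratios was not tested. Map1lc3a over Map1lc3b was 1.85, 1.46 and 1.497 in control, 0.937, 0.760 and 0.873 in ORX and 1.75, 1.69 and 1.54 in ORX+DHT libraries. Ctsd over Ctsl was 3.69, 3.47 and 2.95, then 2.12, 2.18 and 1.84, then 4.62, 3.73 and 4.56. The ORX libraries had the lowest ratio in both pairs. Control replicate 1 had the highest Map1lc3a over Map1lc3b of the 9 libraries. Ctsd over Ctsb was 0.872 to 1.22 in control libraries, 0.647 to 0.752 in those of ORX, and 0.966 to 1.42 in those of ORX+DHT.

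**Figure D3:**
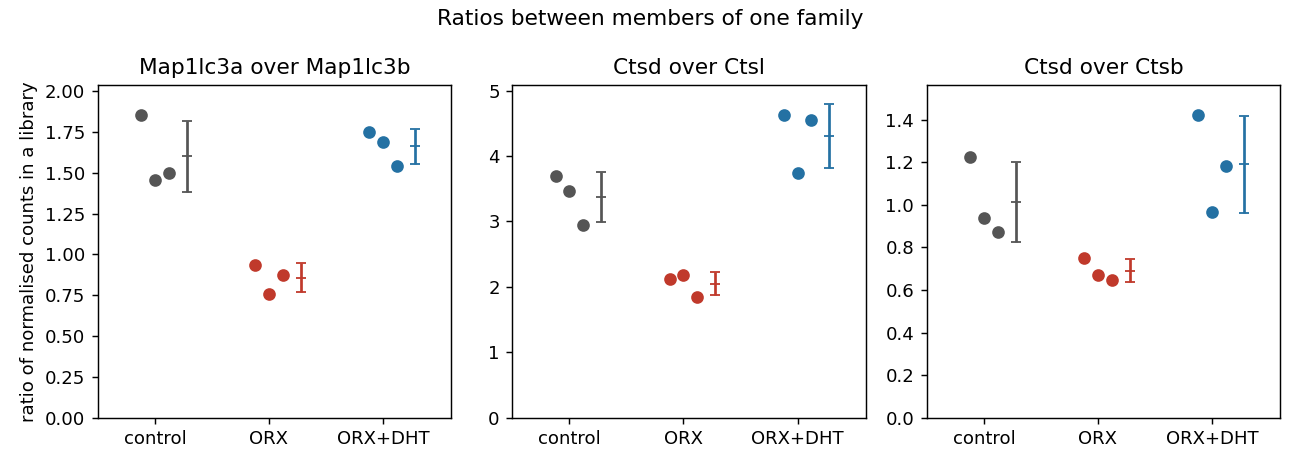
Ratio of normalised counts within a library for Map1lc3a over Map1lc3b, Ctsd over Ctsl and Ctsd over Ctsb, with 1 point per library and the mean ± SD (n = 3) in each group. In all 3 panels the ORX libraries lie below every control and every ORX+DHT library. The part of exon length in these ratios was not tested.

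The receptors carry cargo to the forming membrane. Of 6 members, 1 rose and 5 did not pass the test. Optn (optineurin, ENSMUSG00000026672, chr2:5020642-5064051, minus strand), a receptor for ubiquitinated cargo including damaged mitochondria, stood at 185, 167 and 171 in control, 121, 111 and 150 in ORX and 196, 167 and 177 in ORX+DHT libraries. The ORX libraries were again the lowest of the 9. Means were 174 ± 9.38, 127 ± 20.2 and 180 ± 14.4 (SD, n = 3), with a log2 fold change of 0.51 against ORX (SE 0.12, limma adjusted p 0.0233). The adjusted p was 0.0707 and 0.143 without ORX replicate 1 or 2, and 0.146 and 0.0575 without ORX+DHT replicate 1 or 3. In ORX against control the log2 fold change was -0.46 (adjusted p 0.669), and the control libraries lay close together for this gene. In ORX+DHT against control it was 0.04 (adjusted p 0.945).

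Sqstm1, the most abundant receptor per kilobase, stood at 945, 798 and 763 in control, 713, 782 and 826 in ORX and 827, 819 and 967 in ORX+DHT libraries. Its groups overlapped, with a log2 fold change of 0.17 against ORX (95% interval -0.02 to 0.36, limma adjusted p 0.407). Nbr1, a receptor related in domain structure to Sqstm1, had -0.01. The mitophagy receptors of the outer mitochondrial membrane had 0.19 for Bnip3, -0.33 for Bnip3l and -0.09 for Fundc1, with adjusted p between 0.422 and 0.862. Bnip3l stood at 59.9, 63.1 and 88.5 in ORX and 66.9, 47.4 and 52.4 in ORX+DHT libraries, overlapping values.

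The 9 initiation and nucleation genes gave no call in any comparison. With DHT against ORX alone, log2 fold changes of these genes ran from -0.21 (Atg9a) to 0.19 (Pik3c3), with a median of 0.02. Ulk2, a kinase that starts autophagosome formation, stood at 226, 318 and 289 in control, 259, 246 and 254 in ORX and 272, 280 and 254 in ORX+DHT libraries (0.08 against ORX, adjusted p 0.746). Wipi1, which binds the lipid made by Vps34, stood at 160, 165 and 160, then 151, 150 and 134, then 160, 127 and 175 (0.07, adjusted p 0.853). Both genes' ORX and ORX+DHT libraries overlapped, while the ORX libraries of Wipi1 lay below its controls (-0.16, adjusted p 0.818). Atg14, the subunit that directs the Vps34 complex to autophagy, stood at 9.99, 14.4 and 10.9 in control, 16.7, 19.6 and 19.9 in ORX and 23.3, 8.70 and 28.7 in ORX+DHT libraries. Its log2 fold change in ORX against control was 0.64 (95% interval 0.03 to 1.24, limma adjusted p 0.683), on 8 to 29 reads a library. The remaining genes of this role were Ulk1, Atg13, Becn1, Pik3c3, Atg9a and Wipi2.

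The 8 conjugation genes also gave no call. Atg3, the enzyme that transfers LC3 to lipid, stood at 46.2, 44.2 and 46.7 in control, 46.1, 34.1 and 43.0 in ORX and 43.6, 49.3 and 46.4 in ORX+DHT libraries (0.18 against ORX, limma adjusted p 0.707). Atg4a, a protease that prepares LC3 and GABARAP proteins for conjugation, stood at 31.2, 24.3 and 29.8 in control, 35.3, 24.7 and 29.0 in ORX and 39.5, 36.7 and 48.4 in ORX+DHT libraries. All 3 ORX+DHT libraries were above the other 6, on 22 to 49 reads. The log2 fold change was 0.48 against ORX (adjusted p 0.253) and 0.53 against control (adjusted p 0.736), and neither passed. Its relatives Atg4b and Atg4d had -0.21 and 0.12 against ORX. Atg5, Atg7, Atg12 and Atg16l1 lay between -0.20 and 0.09.

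The 4 lysosomal enzymes and helpers outside the cathepsins and the 2 membrane proteins gave no call in any comparison. Psap stood at 1373, 1483 and 1352 in control, 1406, 1433 and 1423 in ORX and 1477, 1469 and 1477 in ORX+DHT libraries. The ORX+DHT values were all above the ORX values, yet the log2 fold change was 0.05 (95% interval -0.10 to 0.20, limma adjusted p 0.797). Gaa stood at 348, 446 and 362, then 407, 484 and 457, then 469, 416 and 480, with a log2 fold change of 0.02 against ORX (adjusted p 0.958). Lamp1 stood at 581, 554 and 595, then 587, 640 and 688, then 592, 614 and 630, a log2 fold change of -0.06 (95% interval -0.23 to 0.12, adjusted p 0.821). Lamp2, which also serves chaperone-mediated autophagy, stood at 129, 133 and 131, then 132, 148 and 156, then 147, 136 and 155 (0.01, 95% interval -0.22 to 0.25, adjusted p 0.97498). These intervals do not reach the size of the change of Ctsl or Map1lc3a. Hexa, a subunit of the enzyme that degrades gangliosides, and Grn, the precursor of the granulins, had -0.20 and -0.32, with adjusted p of 0.64 and 0.438.

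Tfeb and Tfe3 are the transcription factors that drive lysosomal genes through the CLEAR element. Tfeb stood at 110, 113 and 105 in control, 117, 120 and 139 in ORX and 96.3, 111 and 99.8 in ORX+DHT libraries. The ORX libraries were the highest of the 9, with no overlap with either group. The log2 fold change of ORX+DHT against ORX was -0.29 (unadjusted p 0.0293, limma adjusted p 0.267), and that of ORX against control 0.19 (adjusted p 0.801). Tfe3 stood at 7.49, 21.01 and 15.9 in control, 22.6, 26.4 and 18.2 in ORX and 19.3, 19.3 and 23.7 in ORX+DHT libraries, with -0.10 against ORX (adjusted p 0.904). Its 6 to 31 reads a library limit what can be seen.

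The control libraries were less alike than those of the other groups. A member's log2 values had a median SD of 0.19 among control, 0.12 among ORX and 0.15 among ORX+DHT libraries, against 0.30, 0.19 and 0.18 over all genes. Control replicate 1 differed from the mean of controls 2 and 3 by over 0.5 log2 in 10 members. The 7 higher ones were Map1lc3a (0.88), Gabarapl2 (0.87), Gabarap (0.83), Ctsz (0.71), Ctsd (0.62), Ctsa (0.57) and Map1lc3b (0.55), and the 3 lower ones Atg9a (-1.42), Tfe3 (-1.18) and Ulk1 (-0.68). This library was the highest or the lowest of the 9 in 16 members, and the other libraries in 5 to 11. The higher genes have mostly short and the lower ones long exons: Spearman's rho between this difference and merged exon length was -0.36 over the 42 members, which are not independent replicates. Over all genes tested, rho between merged exon length and the log2 fold change was 0.25 in ORX against control, 0.30 for ORX+DHT over control, and 0.05 for ORX+DHT against ORX. The part of transcript length in these differences was not tested beyond a length correction, under which the counts of called members were 0, 5 and 0 as without it. Ctsl and Optn differed by 0.41 and 0.13 in this library.

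**Figure D4:**
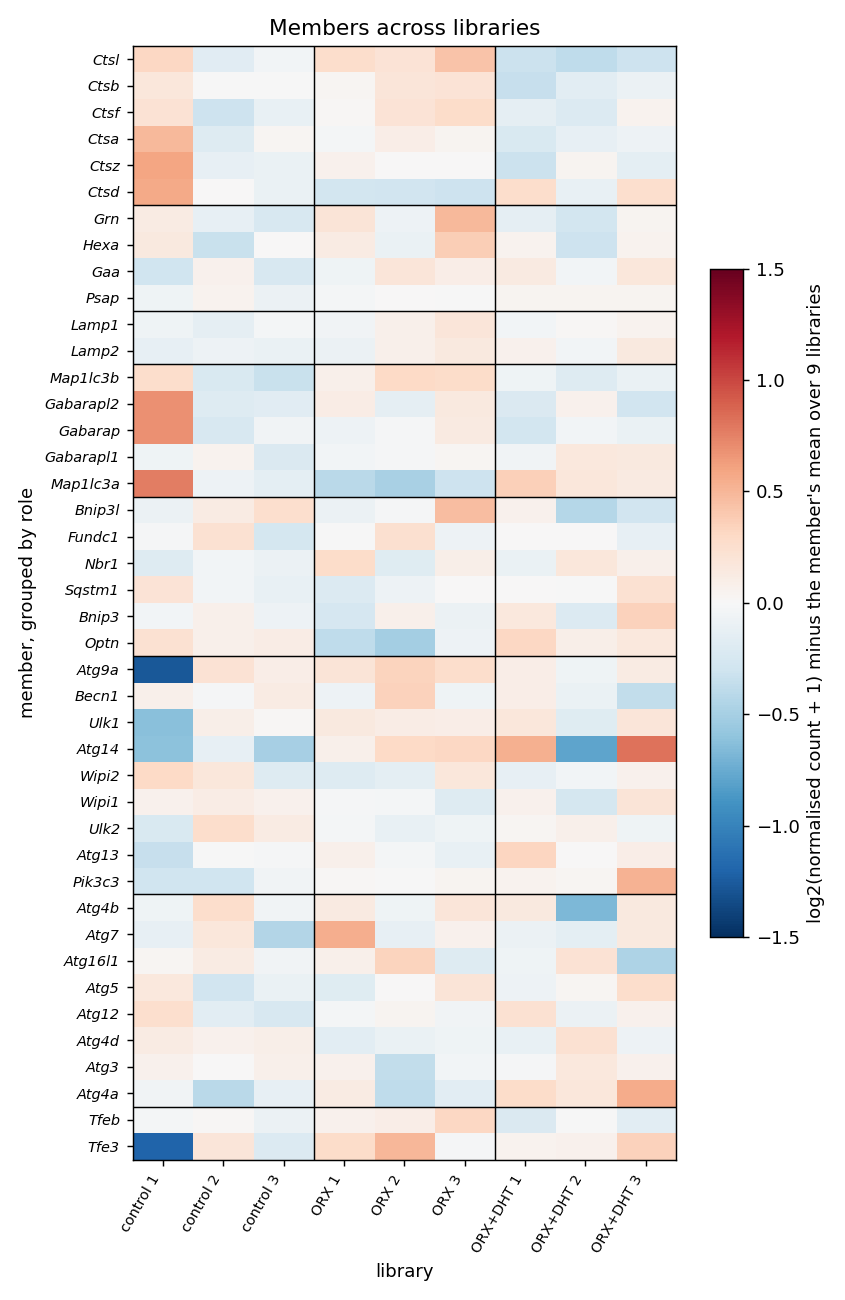
Deviation of each member's log2 value from its mean over 9 libraries (colour scale, log2), with the members in rows grouped by role and the libraries in columns by group. The 2 lowest values are those of Atg9a and Tfe3 in control replicate 1, a library that is also high for Map1lc3a, Gabarap and Gabarapl2, while Ctsd, Map1lc3a and Optn are low across the 3 ORX libraries.

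Among 98 other genes of the pathway, 88 were tested in ORX+DHT against ORX, and 3 rose and 2 fell, 5.68% of those tested against 4.08% of all genes. Npc1 (chromosome 18), which exports cholesterol from the lysosome, rose from 61.8, 84.4 and 71.1 in ORX to 154, 171 and 160 in ORX+DHT libraries (log2 fold change 1.16, SE 0.13, limma adjusted p 1.7e-05). Its control libraries, at 67.4, 114 and 103, were all below the ORX+DHT libraries. Rab7 (chromosome 6), the small GTPase of late endosomes and lysosomes, rose from 215, 220 and 208 to 298, 318 and 284 (log2 fold change 0.48, adjusted p 0.00424), with 396, 326 and 264 in control. Trp53inp2 (chromosome 2), an autophagy regulator abundant in muscle, rose from 1207, 1220 and 1113 to 1618, 1509 and 1556 (0.40, adjusted p 0.00318), with 1416, 1639 and 1543 in control.

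The 2 that fell were Pink1 and Ctsk. Pink1 (chromosome 4), the kinase that marks damaged mitochondria for mitophagy, fell from 1265, 1441 and 1578 to 1014, 1106 and 1126 (log2 fold change -0.40, limma adjusted p 0.0119). Its adjusted p was 0.0673 without ORX replicate 2 and 0.0890 without ORX+DHT replicate 1. Ctsk (chromosome 3), a collagen-degrading cathepsin, fell from 51.0, 23.9 and 24.8 to 9.12, 13.5 and 9.88, a log2 fold change of -1.47 (adjusted p 0.00645, and 0.0551 without ORX replicate 1). All 15 subunits and accessory proteins of the v-ATPase, the proton pump that acidifies the lysosome, were tested, and none was called in any comparison by limma (in ORX against control 1 reached an unadjusted p under 0.05). ORX against control called 0 of 88 other pathway genes, with 9 at an unadjusted p under 0.05 (10.2%, against 7.21% of all genes), and ORX+DHT against control 0 of 86, with 1 (1.16%, against 6.48%).

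Markers of the cell types in the tissue were read alongside. All 7 markers of the muscle fibre were detected in every library. Of these, Acta1 (log2 fold change 0.47, limma adjusted p 0.00357) and Des (0.28, adjusted p 0.0415) rose in ORX+DHT against ORX, the same direction as Ctsd, Map1lc3a and Optn. The other 5 were not called, Ckm at 0.07, Mylpf at 0.17, Tnnt3 at 0.18, Myh4 at -0.08 and Pvalb at -0.28 with groups that did not overlap (adjusted p 0.154). In ORX against control all 7 had values below 0, and 0 were called by limma (1 at an unadjusted p under 0.05). The groups did not overlap for 4 of them, against 14.3% of all genes. Control replicate 1 weighs on these values: Mylpf stood at 27521 there, against 13768 and 13253 in the other controls. Ckm, Acta1, Des, Tnnt3 and Pvalb were also highest in that library, while Myh4 was lower there than in the other controls. Of 6 fibroblast markers, Col1a1 (-1.18, adjusted p 2.89e-06) and Lum (-1.79, adjusted p 4.81e-06) fell with DHT, the same direction as Ctsl, Ctsb and Ctsk. The other 4 were not called: Col3a1 stood at -0.47 (adjusted p 0.0597), Dpt at -0.27, Dcn at -0.05 and Pdgfra at 0.06. The summed level of the 6, most of it from Col1a1 and Col3a1, was 1374 to 2759 in control libraries, 2912 to 3902 in those of ORX, and 1731 to 2440 in those of ORX+DHT, and none was at 0 in any library. None of 12 macrophage markers was called in ORX+DHT against ORX (6 tested, 1 at an unadjusted p under 0.05). They did not move together: Cd163 stood at 1.29 (limma adjusted p 0.241), on 2 to 28 reads a library. Mrc1 stood at -0.41 with groups that did not overlap (adjusted p 0.463), and the others tested lay between 0.06 and 0.48. The summed level of the 12 was 70.8 to 120 in control libraries, 81.9 to 167 in those of ORX, and 121 to 161 in those of ORX+DHT. Fcgr1 and Itgam were at 0 in all 3 control libraries, but neither had more than 2 reads in any library. The part of cell-type makeup in the changes of these genes was not tested, and in bulk tissue fewer cells of a type and less RNA per cell cannot be told apart.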

How the data were processed

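The authors deposited 2 tables of normalised counts of protein-coding genes, a signal: read counts over a size factor per library. Per the submitters' processing notes, Trim Galore 0.6.7, HISAT2 2.2.1, featureCounts 2.0.1 and DESeq2 1.36.0 were used with build GRCm38; strand and multi-mapping settings are not given in the sources used here. Every value was a whole multiple of its library's step (100% within 0.001 reads), so reads were recovered. 0 columns were left unmapped. ORX columns were proportional between the tables, so the 14300 shared genes were rescaled jointly by median-of-ratios factors for per-library values and for ORX+DHT against control. The other comparisons were fitted within their own table.

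limma 3.58.1 in R 4.3.3 (lmFit, eBayes with trend) was run on log2(value + 1), genes with a mean of at least 10, Benjamini-Hochberg over all genes; it was tested on simulated data. Fold changes are on this scale, which understates low genes. Alternatives were pseudocounts of 0.1 and 10, no filter, a minimum mean of 50, TMM, quantile normalisation, 1 fit of 9 libraries, a replicate block, each library left out, edgeR 4.0.16 and DESeq2 1.42.0 on recovered reads, and, added after the data were seen, a correction for exon length (GENCODE release M21). Members called in any comparison, members whose unadjusted p was under 0.05 in either within-table comparison, and the 2 most abundant of each role are given with values, as are called genes among the 98 other pathway genes. The members and lists were chosen with earlier results of these data known. Reads are not independent molecules, and no count interval is given.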

Additional observations from a re-analysis of the deposited data

How the results depend on the processing

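Members called in ORX+DHT against ORX numbered 5 with limma, 1 (Ctsl) in the fit of all 9 libraries, 3 with DESeq2, and 2 to 5 when 1 library was left out (2 without ORX replicate 2 or without ORX+DHT replicate 1, 3 without ORX+DHT replicate 3); the other alternatives gave 4 to 6. The other comparisons called 0 members under every alternative run. Of the called members, Ctsl kept its call in 17 of 17 alternatives, Map1lc3a in 16, Ctsd in 12, Optn in 11 and Ctsb in 10, each with the same direction throughout. In ORX+DHT against control, where none was called, the log2 fold change of Ctsd (-0.02) was 0.041 with quantile normalisation and 0.098 with the length correction, and ran from -0.15 to 0.18 with 1 library left out; that of Map1lc3a (0.04) was -0.0047 with edgeR and -0.013 with DESeq2 and ran from -0.12 to 0.34; that of Optn (0.04) ran from -0.017 (without ORX+DHT replicate 1) to 0.095. A fit that leaves out a library assumes that the pair left varies like the other group.

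Replicate numbers do not pair the libraries by any label. Same-numbered ORX and ORX+DHT libraries correlated at 0.06, 0.07 and 0.15 in their deviations, each best with its own number; with the replicate block 6 members were called (Map1lc3b added, adjusted p 0.0376). The block changed no count in the other comparisons (0 members). The rarest members had few reads: for Atg14, with 8 to 29 reads a library, the 95% interval of ORX+DHT against ORX ran from -0.75 to 0.67. Its ORX+DHT libraries also lay far apart, and the part of depth in that width was not tested.

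Over all genes, limma called 5 in ORX against control, 358 when ORX+DHT was set against ORX, and 3 when it was set against control (the order kept below). The fit of 9 libraries called 23, 123 and 11, DESeq2 28, 224 and 13, and the length correction 18, 394 and 14. No filter gave 16 in ORX against control, quantile normalisation 6 in ORX+DHT against control, and the replicate block 571 in ORX+DHT against ORX. With 1 library left out the counts ran from 1 to 51, from 223 to 350 and from 0 to 66, the highest for both comparisons with control being without control replicate 1. The median over the members in ORX+DHT against ORX (-0.05) was 0.02 without ORX+DHT replicate 2.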
